A study of Homo sapiens with 9 samples.

Results

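The 9 genes described here encode core parts of the Polycomb machinery: EZH1, EZH2, SUZ12 and EED of Polycomb repressive complex 2 (PRC2), RNF2 of Polycomb repressive complex 1 (PRC1), and the PRC1 chromobox genes CBX2, CBX6, CBX7 and CBX8. They were chosen by symbol, with earlier results of these data known, and each matched 1 of the 67071 gene identifiers in the count table. All 9 passed the low-count filter and were tested with 16855 genes in all. RNA was sequenced in 9 libraries of 22Rv1, a human prostate carcinoma line derived from a xenograft. Of these, 3 carried hairpin RNA number 1 against CHD9 (shCHD9_1, hairpin 1 here), 3 carried hairpin number 2 against CHD9 (shCHD9_2, hairpin 2) and 3 carried a hairpin against GFP (shGFP) in cells labelled as wild type. CHD9 encodes a chromodomain helicase that remodels nucleosomes. All groups are the same cell line, no drug treatment is labelled, and the sources used here do not give how the hairpins were delivered or how long they acted. The labels do not tell whether the replicates came from separate cultures, so the tests speak of the spread among these 9 libraries, which may be technical.

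PRC2 methylates lysine 27 of histone H3. EZH2 or its paralog EZH1 holds the catalytic SET domain, SUZ12 is the scaffold on which the complex and its accessory subunits assemble, and EED binds the methyl mark and stimulates the enzyme. PRC1 ubiquitinates histone H2A through RNF2 (RING1B) or RING1, and in its canonical form a CBX protein reads the H3 lysine 27 mark through its chromodomain. In prostate cancer EZH2 is known as a gene of high level in advanced disease. A canonical PRC1 complex holds a single CBX protein.

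SUZ12 mRNA was lower, and CBX2, CBX7 and CBX8 mRNA higher, with each CHD9 hairpin than with shGFP. CBX6 was lower with each hairpin. EZH2 and EZH1 passed the test with neither hairpin. EED and RNF2 each passed with 1 hairpin only. Over the mean of both hairpins, 3 members were higher, 2 lower and 4 did not pass (edgeR quasi-likelihood test, Benjamini-Hochberg adjusted p under 0.05). Among all genes tested 45.5% were called in this comparison, 22.3% higher and 23.2% lower, so a call was common in this comparison. The median log2 fold change of the members was 0.00, as it was over all genes tested, and the median size of a change regardless of sign was 0.17 over all genes.

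The promoters of SUZ12 and CBX7 are shown because both genes were called with each hairpin, in opposite directions, and both have an entry in the promoter table of RefSeq (GRCh38.p14). An entry was found for 7 of the 9 members, with 2 for EZH2. Each line gives the 250 bases before the annotated start, read 5′ to 3′ on the strand of the gene, at chr17:31936757-31937006 on the plus strand for SUZ12 and at chr22:39152681-39152930 on the minus strand for CBX7. Capitals mark matches, on either strand, to the E2F motifs TTTCCCGC, TTTGGCGC, TTTCGCGC and TTTGCCGC, to the CCAAT box CCAAT and to the GC box GGGCGG. The cAMP response element TGACGTCA, the ETS motif CCGGAAGT and the palindromic NRF1 motif were searched as well and had no match in the windows of the members.
SUZ12: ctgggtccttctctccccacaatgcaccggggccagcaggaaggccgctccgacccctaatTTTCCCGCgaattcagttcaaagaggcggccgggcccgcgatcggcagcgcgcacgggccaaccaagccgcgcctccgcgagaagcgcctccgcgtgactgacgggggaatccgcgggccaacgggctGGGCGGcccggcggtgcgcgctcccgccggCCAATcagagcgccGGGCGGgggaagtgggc
CBX7: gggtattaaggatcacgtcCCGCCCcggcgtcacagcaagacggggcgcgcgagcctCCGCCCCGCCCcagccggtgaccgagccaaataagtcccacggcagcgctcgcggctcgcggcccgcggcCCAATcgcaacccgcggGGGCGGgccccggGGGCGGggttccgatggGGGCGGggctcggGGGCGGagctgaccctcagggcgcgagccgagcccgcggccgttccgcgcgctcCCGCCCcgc
The SUZ12 window holds an E2F motif 189 bases before the start, a CCAAT box 31 bases before it, and 2 GC boxes. The CBX7 window holds 8 GC boxes, of which a neighbouring pair overlaps, and a CCAAT box 123 bases before the start. Over the 35116 promoter windows in the table, 2.79% hold an E2F motif, 32% a CCAAT box and 42.6% a GC box. EZH1, which was not called against shGFP, also has an E2F motif, 115 bases before its start. The first EZH2 window holds 4 CCAAT boxes and 4 GC boxes, the RNF2 window 4 GC boxes, and the EED window 1 CCAAT box. CBX6, which was lower, has 4 GC boxes, and its window is not printed because it reaches into the gene as GENCODE annotates it. The windows of EED, RNF2, EZH1 and EZH2, also not printed, reach into their genes as well. A match describes letters in these windows and is no measurement of binding.

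Of the PRC2 core, SUZ12 (ENSG00000178691.11, chr17:31937018-32001045, plus strand, GRCh38) was the member that moved. SUZ12 stood at 65.2, 70.6 and 66.1 CPM (counts relative to the library total, scaled by the TMM method) with hairpin 1, at 68.6, 73.9 and 73.1 CPM with hairpin 2, and at 89.5, 85.8 and 92.7 CPM with shGFP. All 6 CHD9 hairpin libraries lay below all 3 shGFP libraries, and the hairpin groups overlapped each other. SUZ12 fell by 0.36 on the log2 scale over the mean of both hairpins (SE 0.03; edgeR adjusted p = 5.94e-12), which is 0.779 of the shGFP level. The fall was 0.41 with hairpin 1 (SE 0.04; edgeR adjusted p = 1.5e-11) and 0.31 with hairpin 2 (SE 0.04; edgeR adjusted p = 1.74e-08). With a correction for GC content and length the fall was 0.20 over both hairpins (edgeR adjusted p = 2.3e-07) and 0.19 with hairpin 1, and SUZ12 transcripts hold 38% GC. Of all genes tested, 76.8% had a smaller change in size. The libraries hold bulk RNA of a cell line, in which fewer cells of a state and less RNA per cell cannot be told apart.

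SUZ12 has a transcribed pseudogene copy, SUZ12P1, that had between 345 and 600 counts per library, so reads of one could have been given to the other. SUZ12P1 averaged 19.8 ± 1.65 CPM with hairpin 1, 19.5 ± 0.936 CPM with hairpin 2 and 18.1 ± 0.518 CPM with shGFP (SD, n = 3 each). Its log2 difference over both hairpins was 0.12 (SE 0.06; edgeR adjusted p = 0.131), opposite in sign to that of SUZ12. The sum of the pair was not tested.

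EZH2 (ENSG00000106462.11, chr7:148807383-148884321, minus strand), the main H3 lysine 27 methyltransferase of proliferating cells, did not pass in any comparison. EZH2 stood at 91.3, 95.4 and 92.7 CPM with hairpin 1, at 97.7, 97.2 and 96.5 CPM with hairpin 2, and at 97.8, 93.9 and 96.9 CPM with shGFP. The groups with either hairpin overlapped the shGFP libraries. The log2 fold change over both hairpins was -0.02, with a 95% interval of -0.08 to 0.04 (edgeR adjusted p = 0.71). The sign turned and the value passed once GC content and length were corrected for, at 0.07 (edgeR adjusted p = 0.0391), so no direction is given for EZH2. The counts behind these values were 1844 to 3155 per library.

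EZH1 (ENSG00000108799.13, chr17:42700275-42745049, minus strand), the paralog typical of resting cells, stood at 42.7, 40.7 and 39.7 CPM with hairpin 1, at 36.8, 38.6 and 35.8 CPM with hairpin 2, and at 41.1, 39.7 and 36.5 CPM with shGFP. The shGFP libraries overlapped each hairpin group, while the 3 hairpin 1 libraries lay above the 3 hairpin 2 libraries. Its log2 fold change over both hairpins was 0.00, with a 95% interval of -0.09 to 0.10 (edgeR adjusted p = 0.976).

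EED (ENSG00000074266.21, chr11:86244544-86278813, plus strand), the subunit that binds methylated lysine 27, had the widest spread relative to its mean in shGFP. EED stood at 28.0, 26.3 and 27.0 CPM with hairpin 1, at 23.3, 25.8 and 26.2 CPM with hairpin 2, and at 30.2, 24.9 and 29.2 CPM with shGFP. Replicate 2 of shGFP was lower than every hairpin 1 library, and all groups overlapped shGFP. EED passed with hairpin 2, at -0.16 on the log2 scale (SE 0.07; edgeR adjusted p = 0.0492), and did not pass with hairpin 1, at -0.05 (SE 0.07; edgeR adjusted p = 0.558). The hairpin 2 call was lost in 14 of 17 alternative analyses, the replicate block among them (-0.16; edgeR adjusted p = 0.0579). The mean of both hairpins stood at -0.11 (edgeR adjusted p = 0.127). It passed at -0.19 without replicate 2 of shGFP (edgeR adjusted p = 0.0123), and turned to 0.12 with the correction for GC content and length (edgeR adjusted p = 0.0742), so no direction is given for EED. Under that correction hairpin 1 passed at 0.27 (edgeR adjusted p = 0.000431). EED transcripts hold 33% GC, the lowest of the members.

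**Figure D1:**
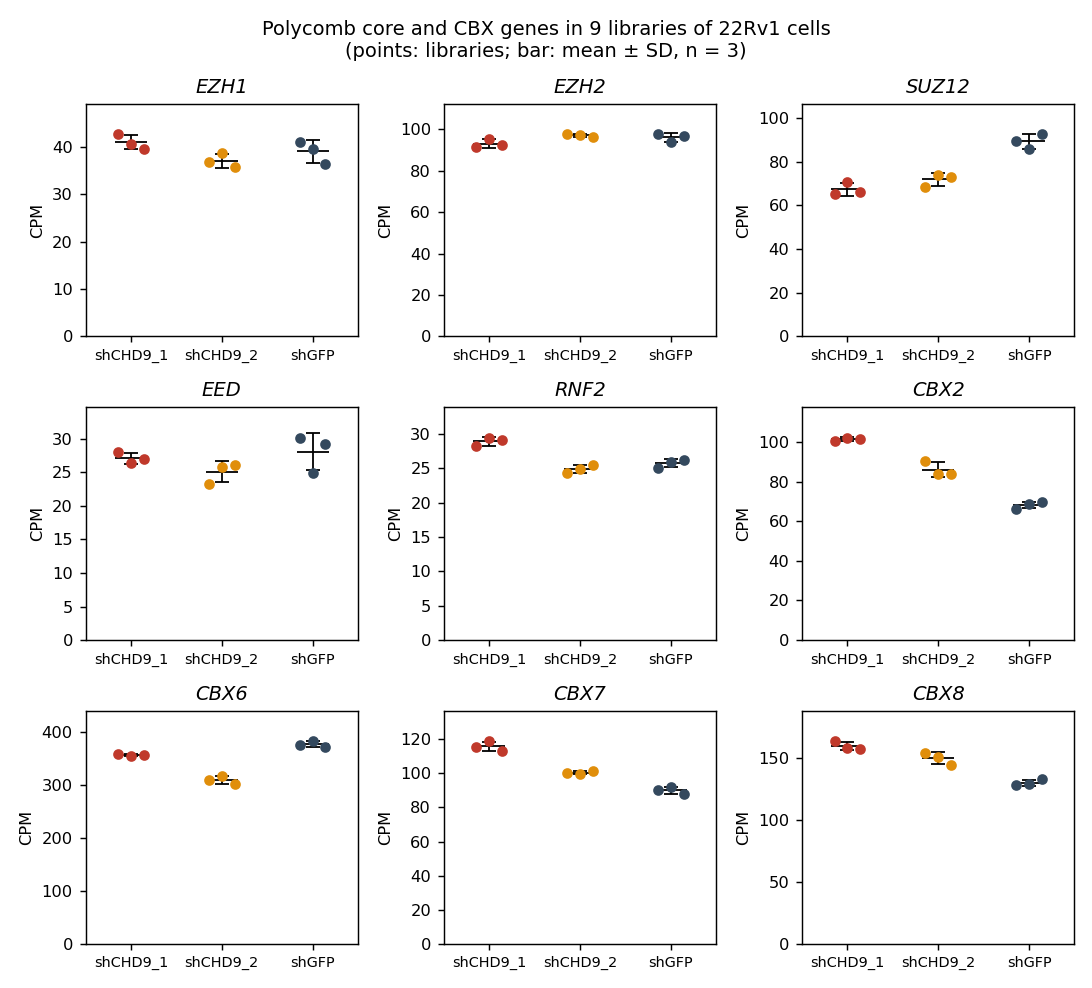
CPM of each of the 9 genes (vertical axis, starting at 0) in the 9 libraries, by group; points are libraries and bars are the mean ± SD of 3. SUZ12 lies lower and CBX2, CBX7 and CBX8 lie higher in all 6 CHD9 hairpin libraries than in the 3 shGFP libraries, and EZH2 overlaps between each hairpin group and shGFP.

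RNF2 (ENSG00000121481.11, chr1:185045364-185102608, plus strand), the E3 ligase subunit of PRC1 that ubiquitinates H2A, stood at 28.2, 29.5 and 29.1 CPM with hairpin 1, at 24.4, 25.0 and 25.5 CPM with hairpin 2, and at 25.1, 26.0 and 26.2 CPM with shGFP. The hairpin 1 libraries lay above all others, and the hairpin 2 libraries overlapped shGFP. RNF2 rose by 0.17 on the log2 scale with hairpin 1 (SE 0.06; edgeR adjusted p = 0.0166), and stood at -0.05 with hairpin 2 (SE 0.06; edgeR adjusted p = 0.576). The hairpin 1 call was lost without replicate 1 of shGFP (0.15; edgeR adjusted p = 0.0611) and without replicate 2 of hairpin 1 (0.16; edgeR adjusted p = 0.0571). With the correction for GC content and length it was 0.40 with hairpin 1 (edgeR adjusted p = 7.67e-08) and 0.06 with hairpin 2 (edgeR adjusted p = 0.419).

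CBX2 (ENSG00000173894.11, chr17:79778132-79787983, plus strand), a PRC1 reader whose mouse protein compacts nucleosome arrays in vitro, had the largest change of the 9 members. CBX2 stood at 101, 102 and 102 CPM with hairpin 1, at 90.4, 84.2 and 83.8 CPM with hairpin 2, and at 66.5, 68.6 and 69.6 CPM with shGFP. The 3 groups were fully separated, in the order hairpin 1, hairpin 2, shGFP. CBX2 rose by 0.45 on the log2 scale over both hairpins (SE 0.03; edgeR adjusted p = 1.78e-15), a 1.37-fold level. The rise was 0.57 with hairpin 1 (SE 0.04; edgeR adjusted p = 4.37e-17) and 0.33 with hairpin 2 (SE 0.04; edgeR adjusted p = 1.05e-09). It was at least 0.34 over both hairpins in each of 16 alternative analyses, and 83.5% of genes tested changed less.

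CBX8 (ENSG00000141570.11, chr17:79792132-79801683, minus strand), a reader known to repress the INK4A locus, lies next to CBX2. The pair converge on chromosome 17 with 4148 bases between their annotated ends. CBX8 stood at 164, 158 and 158 CPM with hairpin 1, at 154, 151 and 145 CPM with hairpin 2, and at 128, 129 and 133 CPM with shGFP. All 6 hairpin libraries lay above all 3 shGFP libraries. CBX8 rose by 0.25 on the log2 scale over both hairpins (SE 0.03; edgeR adjusted p = 3.11e-10), by 0.30 with hairpin 1 and by 0.20 with hairpin 2. Corrected for GC content and length, the rise was 0.17 over both hairpins and 0.18 with hairpin 1.

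CBX7 (ENSG00000100307.13, chr22:39120167-39152674, minus strand), the reader that predominates in embryonic stem cells of the mouse, stood at 115, 119 and 113 CPM with hairpin 1, at 100.1, 99.5 and 101 CPM with hairpin 2, and at 90.5, 92.0 and 88.0 CPM with shGFP. As with CBX2, the 3 groups were fully separated. CBX7 rose by 0.26 on the log2 scale over both hairpins (SE 0.03; edgeR adjusted p = 1.01e-09), by 0.36 with hairpin 1 and by 0.15 with hairpin 2 (edgeR adjusted p = 3.38e-04). With the correction for GC content and length these were 0.14, 0.20 and 0.08, the last at an edgeR adjusted p of 0.0496, and with the replicate block added 0.0556. An annotated antisense gene of 12 to 43 counts per library overlaps 1338 exonic bases of CBX7, and without a stated strand setting its reads cannot be told apart from those of CBX7.

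CBX6 (ENSG00000183741.12, chr22:38861450-38872314, minus strand), a less studied reader, lies 247852 bases from CBX7 on the same strand and moved the other way. CBX6 stood at 358, 355 and 356 CPM with hairpin 1, at 308, 316 and 302 CPM with hairpin 2, and at 376, 383 and 372 CPM with shGFP. The 3 groups were again fully separated, with hairpin 2 lowest. CBX6 fell by 0.18 on the log2 scale over both hairpins (SE 0.02; edgeR adjusted p = 1.48e-09), by 0.08 with hairpin 1 (edgeR adjusted p = 0.00684) and by 0.29 with hairpin 2 (edgeR adjusted p = 9.75e-13). After that correction the fall was 0.31 over both hairpins and 0.26 with hairpin 1. The CBX6 transcript holds 59.8% GC, close to the 59.7% of CBX2, the 59.2% of CBX7 and the 57.5% of CBX8, all 3 of which rose.

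By hairpin, 4 members were higher, 2 lower and 3 did not pass with hairpin 1, where 47.3% of all genes were called, 23.9% higher and 23.4% lower. With hairpin 2, 3 were higher, 3 lower and 3 did not pass, where 35.7% of all genes were called, 17.2% higher and 18.5% lower. The hairpins share the shGFP libraries, so their calls are not independent of each other. CBX2, CBX7 and CBX8 were called higher with each, as were 13.2% of all genes, and SUZ12 and CBX6 lower with each, as were 13.6%. In CPM, 5 of 9 members had no overlap between all 6 hairpin libraries and shGFP, against 31.7% of all genes tested. With hairpin 1 alone it was 6 of 9, against 53.9% of genes, and with hairpin 2 alone 5 of 9, against 44.1%.

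**Figure D2:**
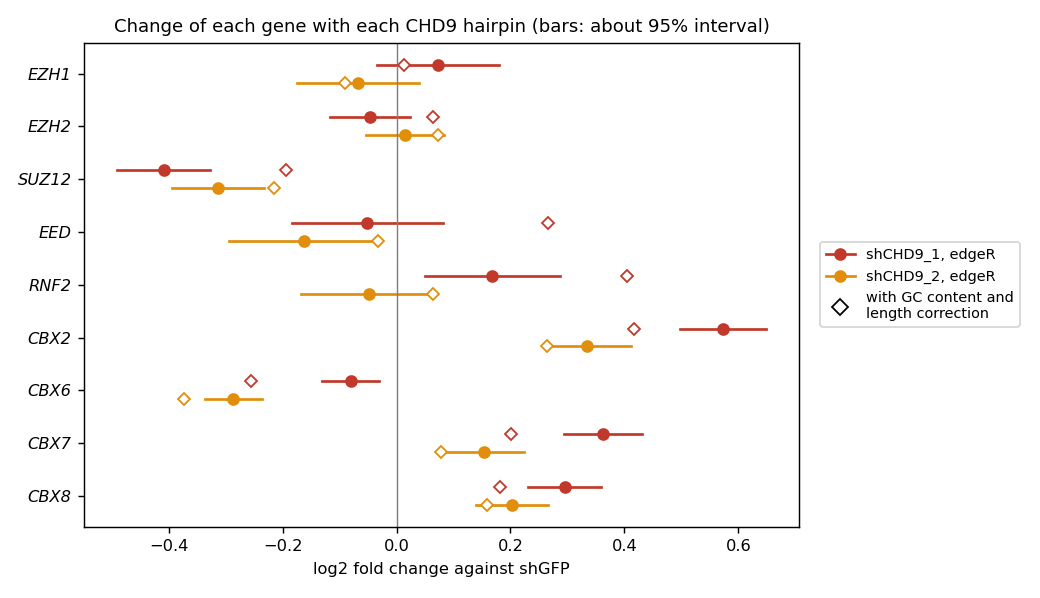
Log2 fold change of each gene with each CHD9 hairpin against shGFP (horizontal axis); filled points are the edgeR estimates with about 95% intervals, and open diamonds are the estimates with the correction for GC content and length. SUZ12 and CBX6 lie below 0 and CBX2, CBX7 and CBX8 above 0 in both forms, while EED and RNF2 with hairpin 1 move furthest to the right under the correction.

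The hairpins differed from each other in 6 of the 9 members by the direct contrast, all higher with hairpin 1, where 29.2% of all genes were called and 15.6% were higher. CBX2 was 0.24 higher on the log2 scale with hairpin 1 than with hairpin 2 (SE 0.04; edgeR adjusted p = 1.04e-06), RNF2 0.22 higher (SE 0.06; edgeR adjusted p = 0.00352), and CBX6 and CBX7 each 0.21 higher (SE 0.03 each; edgeR adjusted p = 1.08e-08 and 2.97e-06). Corrected for GC content and length, these differences were 0.15, 0.34, 0.12 and 0.12 in the same order, and all 4 passed. For CBX2 and CBX7 hairpin 1 thus had the larger rise against shGFP, while for CBX6 it had the smaller fall. EZH1, at 0.14 (edgeR adjusted p = 0.038), and CBX8, at 0.09 (edgeR adjusted p = 0.0194), lost this call with the correction for GC content and length (0.10 and 0.02; edgeR adjusted p = 0.134 and 0.61). EZH1 kept it in 9 of 17 alternative analyses and CBX8 in 13 of 17. SUZ12 stood at -0.10 (SE 0.04; 95% interval -0.18 to -0.01; edgeR adjusted p = 0.0762), and passed without replicate 2 of hairpin 1 (-0.13; edgeR adjusted p = 0.0322) or without replicate 1 of hairpin 2 (-0.13; edgeR adjusted p = 0.0163). The corrected value for SUZ12 was 0.02 (edgeR adjusted p = 0.716). EZH2 stood at -0.06, with a 95% interval of -0.13 to 0.01, and EED at 0.11, with an interval of -0.02 to 0.24, and neither passed, though EED did once corrected (0.30; edgeR adjusted p = 0.000199). In CPM, 8 of 9 members had no overlap between the hairpins, against 39.6% of all genes tested.

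The target gene CHD9 stood at 14.8, 16.7 and 14.9 CPM with hairpin 1, at 18.3, 18.8 and 19.3 CPM with hairpin 2, and at 22.8, 20.5 and 23.2 CPM with shGFP. It fell by 0.52 on the log2 scale with hairpin 1 (SE 0.07; edgeR adjusted p = 7.15e-08) and by 0.24 with hairpin 2 (SE 0.07; edgeR adjusted p = 0.00597), the second a call that was lost without replicate 3 of shGFP (-0.20; edgeR adjusted p = 0.0542). Library totals ran between 18911142 and 31968602 counts, and 15896 to 17375 genes had at least 10 counts. The luminal prostate markers were present, with the homeobox gene HOXB13 at 270.2 ± 2.69 CPM with hairpin 1, 251 ± 2.43 CPM with hairpin 2 and 167 ± 2.44 CPM with shGFP (SD, n = 3 each). The 10 luminal markers summed to 1604 to 1626 TPM (counts per length, scaled to the same total in every library) with hairpin 1, 1536 to 1556 TPM with hairpin 2 and 1433 to 1467 TPM with shGFP, 6 of them higher, 1 lower and 3 not passed over both hairpins, where 45.5% of all genes were called. The basal markers TP63, KRT14 and KRT5 had 5, 5 and 0 counts over all libraries, and the 6 basal markers summed to 6.44 to 7.84 TPM with hairpin 1, 8.69 to 9.93 TPM with hairpin 2 and 9.53 to 10.3 TPM with shGFP. Of the 3 basal markers tested, ITGA6 was higher by 1.86 on the log2 scale, and LAMB3 and CAV1 were lower, at -0.81 and -0.89. The 6 neuroendocrine markers, with CHGA at 0 counts, summed to 7.54 to 8.03 TPM with hairpin 1, 6.41 to 7.11 TPM with hairpin 2 and 4.10 to 4.47 TPM with shGFP. The 2 tested, SRRM4 and SYP, were higher over both hairpins, at 0.79 and 0.68 on the log2 scale. SYP did not pass with hairpin 2 alone (0.23). The 8 fibroblast and immune markers, with CD3E at 0 counts, summed to 4.38 to 5.17 TPM with hairpin 1, 4.25 to 5.72 TPM with hairpin 2 and 3.36 to 3.42 TPM with shGFP. Of the 3 tested, COL3A1 and COL1A1 were higher over both hairpins, at 0.89 and 0.52, and PDGFRB did not pass (-0.33). The part of these markers in the results above was not tested.

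Levels can be compared between genes only per length, in TPM over the union of annotated exons. In every group CBX6 was the highest member, at 149 ± 0.432 TPM with hairpin 1, 135 ± 3.62 TPM with hairpin 2 and 164 ± 2.60 TPM with shGFP (SD, n = 3 each). CBX8 came next, at 129 ± 2.24 TPM with hairpin 1, 126 ± 2.52 TPM with hairpin 2 and 109 ± 1.74 TPM with shGFP, and then EZH2, at 69.4 ± 1.61, 75.3 ± 0.822 and 74.3 ± 1.57 TPM in the same groups. With shGFP the order went on with SUZ12 at 47.6 ± 1.75 TPM, CBX7 at 42.2 ± 1.04 TPM and CBX2 at 41.9 ± 0.850 TPM, where CBX7 and CBX2 overlapped. With either CHD9 hairpin SUZ12 lay below both: with hairpin 1 CBX2 had 60.1 ± 0.683, CBX7 52.3 ± 1.22 and SUZ12 34.6 ± 1.51 TPM, and with hairpin 2 CBX2 had 53.1 ± 1.43, CBX7 47.1 ± 1.01 and SUZ12 38.5 ± 2.12 TPM. RNF2, EZH1 and EED closed the order in every group, between 23.9 ± 0.587 TPM for RNF2 with hairpin 1 and 12.5 ± 0.988 TPM for EED with hairpin 2. Apart from CBX7 and CBX2 in shGFP, no neighbours in the order overlapped between libraries of a group. The order depends on the length used: with the longest annotated transcript in place of all exons, CBX7 (56.6 TPM) already lay above SUZ12 (50.9 TPM) in shGFP, and EED (26.0 TPM) above EZH1 (21.7 TPM) and RNF2 (18.3 TPM).

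Ratios of these levels describe the mRNA balance within each complex. The ratio of SUZ12 to EZH2 in TPM was 0.499 ± 0.0108 with hairpin 1, 0.511 ± 0.0227 with hairpin 2 and 0.641 ± 0.0170 with shGFP (SD, n = 3 each), with no overlap between either hairpin and shGFP. The ratio of EZH2 to EZH1 was 3.51 ± 0.181 with hairpin 1, 4.06 ± 0.149 with hairpin 2 and 3.81 ± 0.253 with shGFP. The 4 chromobox members together summed to 391 ± 1.60 TPM with hairpin 1, 361 ± 4.47 TPM with hairpin 2 and 357 ± 2.63 TPM with shGFP. CBX6 made up 38.2% ± 0.214 of that sum with hairpin 1, 37.3% ± 0.654 with hairpin 2 and 45.9% ± 0.515 with shGFP, which is clear of the spread between libraries. CBX8 made up 33.1% ± 0.463 with hairpin 1, 34.9% ± 0.423 with hairpin 2 and 30.6% ± 0.577 with shGFP. CBX2 made up 15.4% ± 0.227 with hairpin 1, 14.7% ± 0.461 with hairpin 2 and 11.7% ± 0.218 with shGFP, and CBX7 13.4% ± 0.301, 13.1% ± 0.381 and 11.8% ± 0.246 in the same groups. No share overlapped between either hairpin and shGFP. These ratios and shares are descriptions of the values tested above and were not tested again.

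**Figure D3:**
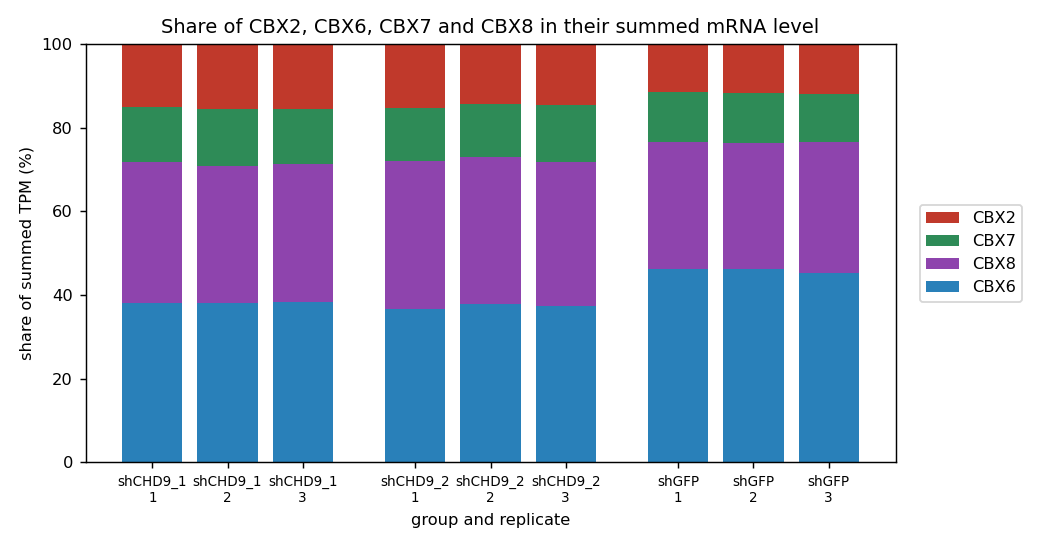
Share (%) of CBX2, CBX7, CBX8 and CBX6 in their summed TPM, 1 bar for each library, grouped by hairpin. The CBX6 band is narrower in the 6 CHD9 hairpin libraries, at 38.2% and 37.3% on average for hairpins 1 and 2, than in the 3 shGFP libraries, at 45.9%.

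The genes whose log2 CPM followed each member most closely over the 9 libraries were sought among 10426 protein-coding genes of at least 5 CPM on average, by Pearson's r. The 9 libraries form 3 groups, so r mostly reflects the order of the groups. The closest to SUZ12 were SCCPDH and YTHDF3 (r = 0.99 each), to CBX2 CYP4F22 and MYC (0.99 each), to CBX7 TRIM11 and SYT7 (0.99 each), to CBX8 RTF1 and FAM219A (0.99 each), and to CBX6 CLU (0.99) and SPRYD3 (0.98). For RNF2 they were BRD3OS (0.98) and CDIPT (0.97), for EZH1 TUSC2 (0.97) and CPSF4 (0.94), for EZH2 PUM2 and GNA13 (0.94 each), and for EED ZKSCAN1 (0.93) and RAB6A (0.91). High likeness was common for some members: 1004 genes had r over 0.9 with CBX2, 955 with CBX7, 853 with CBX8, 847 with SUZ12, 211 with RNF2 and 168 with CBX6, against 14 with EZH2, 14 with EZH1 and 2 with EED.

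Among other PRC2 subunits and partners, RBBP4 and RBBP7 included, 8 of 10 were tested. Over both hairpins 3 were higher, 3 lower and 2 did not pass, with a median log2 fold change of -0.07. The calls make up 75% of the genes tested in this list, against 45.5% of all genes. The histone chaperone RBBP7, which binds SUZ12 in the complex, rose by 0.32 (SE 0.03; edgeR adjusted p = 2.21e-14) and stood at 208 ± 1.94 CPM with hairpin 1, 204 ± 3.50 CPM with hairpin 2 and 165 ± 4.33 CPM with shGFP (SD, n = 3 each). Its paralog RBBP4 fell by 0.06 (edgeR adjusted p = 0.022). Of the Polycomb-like subunits that guide PRC2 to CpG islands, PHF19 rose by 0.37 (SE 0.09; edgeR adjusted p = 9.62e-04) and MTF2 fell by 0.22 (SE 0.04; edgeR adjusted p = 3.83e-05), a call lost with the correction for GC content and length (-0.06). AEBP2, of the other class of PRC2 accessory subunits, rose by 0.14, LCOR fell by 0.08, and JARID2, AEBP2's partner, stood at -0.11 and did not pass. With hairpin 2 alone JARID2 was called lower (-0.20; edgeR adjusted p = 0.00573), and with hairpin 1 it was not (-0.01). LCOR (-0.04) and RBBP4 (-0.03) did not pass with hairpin 2 alone. Over both hairpins the number lower was 1 in place of 3 without replicate 1 of shGFP, replicate 3 of shGFP or replicate 3 of hairpin 1.

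Of 25 other PRC1 subunits and partners, 23 were tested. Over both hairpins 10 were higher, 5 lower and 8 did not pass, with a median of 0.05. The calls make up 65.2% of those tested, against 45.5% of all genes, of which 22.3% were higher and 23.2% lower. BCORL1, a corepressor of variant PRC1, rose by 0.35 (SE 0.04; edgeR adjusted p = 6.47e-11). PCGF1 (0.25), KDM2B (0.11) and BCOR (0.09), further subunits of variant PRC1, were also called higher. With hairpin 2 alone KDM2B (0.05) and BCOR (0.01) did not pass. Over both hairpins PCGF5 rose by 0.40, the RYBP paralog YAF2 by 0.18, DCAF7 and MGA by 0.10 each, and PHC3 by 0.09. Of these, YAF2 (0.15), PHC3 (0.06) and DCAF7 (0.02) did not pass with hairpin 2 alone. MGA (0.08) did not pass with hairpin 1 alone. SCML1, a relative of the fly Sex comb on midleg protein, fell by 0.40 (SE 0.05; edgeR adjusted p = 9.98e-10), AUTS2, a partner of PCGF5 studied in mouse brain, by 0.35 (SE 0.05; edgeR adjusted p = 2.65e-07), SCML2 by 0.26 and PHC2 by 0.14. Corrected for GC content and length, SCML1 fell by 0.17 and AUTS2 by 0.54. The fifth, RYBP, fell by 0.52 (edgeR adjusted p = 0.0462) on 25 to 52 counts per library, and passed with neither hairpin alone. Without replicate 3 of shGFP the number higher was 5 in place of 10. BMI1, the best known PCGF protein, stood at 0.02 and did not pass. RING1, the paralog of RNF2, was listed at 0 in all 9 libraries and was not tested.

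PR-DUB removes the H2A ubiquitin mark that RNF2 places. Of 10 of its subunits and partners, 9 were tested, and over both hairpins 6 were higher and 3 did not pass, with a median of 0.11, where 22.3% of all genes were higher. The glycosyltransferase OGT rose by 0.18 (SE 0.02; edgeR adjusted p = 3.39e-08), the forkhead factors FOXK1 and FOXK2 by 0.16 and 0.14 (SE 0.03 each; edgeR adjusted p = 1.31e-06 and 7.68e-05), ASXL2 by 0.16, ASXL1 by 0.10 and HCFC1 by 0.09. The catalytic subunit BAP1 stood at 0.00 and did not pass. With hairpin 1 alone 8 of the 9 were higher, where 23.9% of all genes were. With hairpin 2 alone 4 were higher, where 17.2% of all genes were, and ASXL1 (0.06) and HCFC1 (0.05) did not pass. With the correction for GC content and length, 2 of the 9 were higher and 3 lower over both hairpins. FOXK1 and FOXK2 did not pass (0.03 and 0.04), so no direction is given for the group.

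Of the demethylases of lysine 27, KDM6A fell by 0.12 (edgeR adjusted p = 0.0372), a call lost in the DESeq2 test (adjusted p = 0.0753), with the correction (-0.07), and without replicate 2 or 3 of shGFP, 2 or 3 of hairpin 1, or 1 of hairpin 2 (-0.09 to -0.12). KDM6B stood at 0.00 over both hairpins, higher with hairpin 1 (0.13; edgeR adjusted p = 1.94e-04) and lower with hairpin 2 (-0.13; edgeR adjusted p = 5.19e-04). The HP1 genes carry the same chromodomain fold but read methylated lysine 9 of H3. All 3 were tested: CBX5 fell by 0.26 (SE 0.02; edgeR adjusted p = 1.38e-14), CBX3 fell by 0.07 (SE 0.02; edgeR adjusted p = 0.00917) and CBX1 stood at -0.02 and did not pass. CBX3 did not pass without replicate 3 of shGFP (-0.04; edgeR adjusted p = 0.237) and turned to a rise of 0.07 with the correction for GC content and length (edgeR adjusted p = 0.00142).

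**Figure D4:**
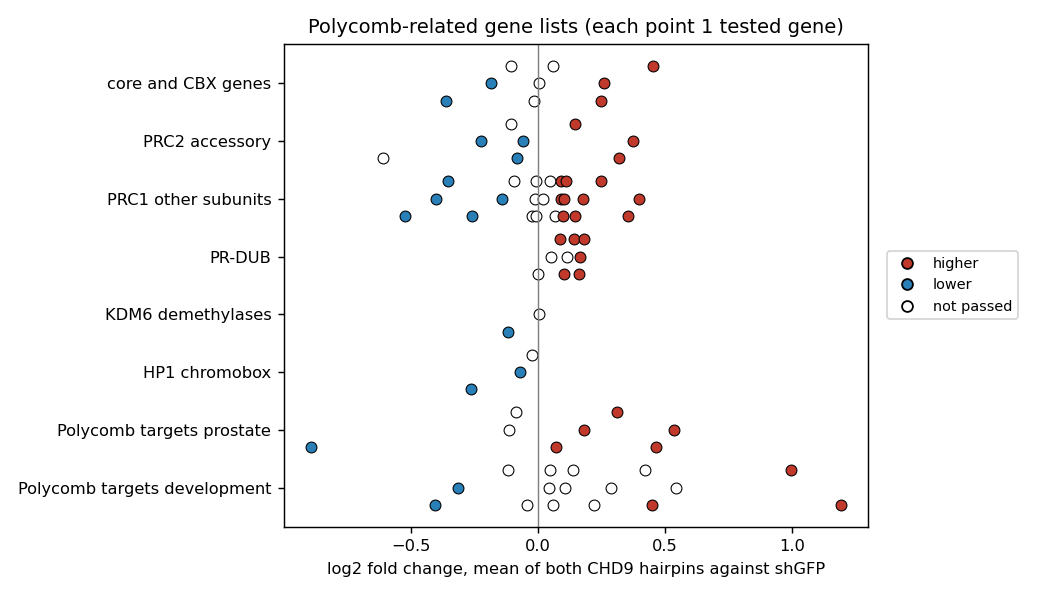
Log2 fold change against shGFP, averaged over the CHD9 hairpins (horizontal axis), for each tested gene of the 9 core and CBX genes and of 7 further lists; red points were called higher, blue points lower and open points did not pass (edgeR). Each list but PR-DUB, the demethylases and the HP1 genes holds calls in both directions.

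Genes known as Polycomb targets were looked at last. Of 11 targets described in prostate cells, 8 were tested, and 5 were higher, 1 lower and 2 not passed over both hairpins, with a median of 0.13. DAB2IP, a Ras GTPase-activating gene that EZH2 silences in prostate cancer, rose by 0.31 (SE 0.04; edgeR adjusted p = 2.4e-09), CDKN2A by 0.18 (SE 0.03; edgeR adjusted p = 2.41e-05), CNR1 by 0.54 and CDH1 by 0.07. CDH1 did not pass with hairpin 2 alone (0.02). With the correction for GC content and length DAB2IP rose by 0.16, and CDKN2A lost its call (0.06). CDKN2B, the neighbour of CDKN2A, fell by 0.90 (SE 0.18; edgeR adjusted p = 7.52e-05) at 1.34 CPM with hairpin 1, 1.48 CPM with hairpin 2 and 2.65 CPM with shGFP. Of 24 developmental targets, 16 were tested, and 3 were higher, 2 lower and 11 not passed, with a median of 0.12. GATA2, a zinc finger transcription factor, rose by 0.99 (SE 0.02; edgeR adjusted p = 1.31e-32), TBX2 by 1.19 (SE 0.17; edgeR adjusted p = 1.82e-07) at low levels, and SIX2 by 0.45. GATA3 fell by 0.41 (SE 0.03; edgeR adjusted p = 1.6e-14). With the correction for GC content and length, 6 of the 16 were lower in place of 2. The lists' shares of called genes, 75% of the tested prostate targets and 31.2% of the tested developmental targets, lie on either side of the 45.5% over all genes. Histone marks were not measured in these libraries.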

How the data were processed

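The data are a single table of counts, whole numbers of reads per gene without normalisation, which the authors deposited for all 9 libraries. Trim Galore, STAR, DESeq2 and the build hg38 are named, with no order or version, per the submitters' processing notes. Which program counted reads, with what strand setting and annotation, is not given in the sources used here. Per the labels' protocols, libraries came from polyadenylated RNA with a directional kit. Library totals ran between 18911142 and 31968602 counts, and replicates of a group differed by more than counting noise (chi-square per degree of freedom 1.72 to 2.86), so none was counted as a repeat.

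Symbols, lengths and coordinates are from GENCODE 29 (GRCh38), with names from a gene table, and 60659 of 67071 identifiers gained a symbol. In edgeR 4.0.16 (R 4.3.3) genes passed filterByExpr at a minimum count of 10, were scaled by TMM and fitted by the quasi-likelihood method with 1 mean per group. The contrasts were the mean of both CHD9 hairpins, hairpin 1 and hairpin 2, each against shGFP, and hairpin 1 against hairpin 2, with Benjamini-Hochberg adjustment over all genes tested, two-sided, at 0.05. The SE is the log2 fold change divided by the root of its F statistic. TPM were computed from the counts and the union of exons. The correction for GC content and length fits a smooth trend of each library (mgcv 1.9.3) as an offset. The other alternatives were DESeq2 1.42.0 and its size factors, 2 other filters, the replicate block, fits on the 2 groups compared, leaving out each library in turn, and the longest transcript as length. The test was tried on simulated counts.

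The 9 genes, the lists and the tests were chosen with earlier results of these data known. Named genes are the 9 members, CHD9, up to 3 called genes of each list by smallest p, the 2 protein-coding genes most correlated with each member, and further list members to complete a count. Promoter windows are from RefSeq (GRCh38.p14). Some genes that this rule covers are not reported here.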

Additional observations from a re-analysis of the deposited data

Results flagged for a closer look

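For 6 of the 9 members the effect of hairpin 1 differed from that of hairpin 2 by the direct edgeR contrast, with Benjamini-Hochberg adjustment over all genes tested. The log2 difference, hairpin 1 minus hairpin 2, was 0.24 for CBX2 (edgeR adjusted p = 1.04e-06), 0.22 for RNF2 (edgeR adjusted p = 0.00352), 0.21 for CBX6 (edgeR adjusted p = 1.08e-08), 0.21 for CBX7 (edgeR adjusted p = 2.97e-06), 0.14 for EZH1 (edgeR adjusted p = 0.038) and 0.09 for CBX8 (edgeR adjusted p = 0.0194). In each of the 6 all 3 hairpin 1 libraries lay above all 3 hairpin 2 libraries, as in 39.6% of all genes tested in either direction.

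The EZH1 difference did not pass without replicate 1 of hairpin 1 (0.11), replicate 2 of hairpin 1 (0.15), replicate 1 of hairpin 2 (0.13) or replicate 3 of hairpin 2 (0.12). The CBX8 difference did not pass without replicate 1 of hairpin 1 (0.07) or replicate 3 of hairpin 2 (0.07). CHD9 itself was lower with hairpin 1 than with hairpin 2 by a log2 difference of -0.29 (edgeR adjusted p = 0.0024), which did not pass with the correction for GC content and length (-0.17; edgeR adjusted p = 0.0627). Its part in the differences above was not tested.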

How the results depend on the processing

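Over 603 recomputed log2 fold changes of the 9 members, 563 stayed on their side of the threshold, of which 548 kept their sign and 15, which did not pass in either form, turned it. Of the others, 29 no longer passed, 7 newly passed and 4 turned sign to a call. The calls of SUZ12, CBX2, CBX7 and CBX8 over both hairpins kept their direction in all 16 alternatives run for that contrast, at -0.39 to -0.20, 0.34 to 0.47, 0.14 to 0.27 and 0.17 to 0.27 on the log2 scale, and so did that of CBX6, at -0.31 to -0.17. The 4 that turned were EZH2 over both hairpins (0.068 with the correction for GC content and length, 0.0677 with the replicate block added) and EED with hairpin 1 (0.2666 and 0.2673). Under both of these settings 5 members were higher over both hairpins, RNF2 (0.23) and EZH2 being the additions, and CBX3 of the HP1 genes turned to 0.0741 and 0.0736. The number of members lower with hairpin 1 than with hairpin 2 ranged between 0 and 1 when libraries were left out, the 1 being SUZ12. The cause of these changes was not tested.

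The replicate block alone ended the hairpin 2 call of EED (-0.16; edgeR adjusted p = 0.0579), ended or added no other member call, and left 7669 genes called over both hairpins in place of 7675. Same-numbered libraries of different groups had correlated deviations of -0.07 to 0.09, and differently numbered ones of -0.09 to 0.11. Whether same-numbered libraries share a batch cannot be told from these values. The DESeq2 test called 6814 genes. For the members with fewest counts, EED and RNF2, 477 to 838 counts per library limit what can be seen.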

Other observations

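RING1, the paralog of RNF2, had 0 counts in all 9 libraries together, and the PRC2 accessory gene PHF1 had 3. They lie on chromosome 6 at chr6:33208495-33212722 and chr6:33410399-33416453 (GRCh38). Of the 49 protein-coding genes within 1 Mb of RING1, 29 were also listed at 0, which is 59.2%, and around PHF1 it was 28 of 50, or 56.0%. Over all 19910 protein-coding genes 3519 were listed at 0, or 17.7%, and around the 9 members the share was between 0.0% and 15.0%. PCGF2 had 19 counts and EPOP 1 count in all libraries together. The cause was not tested, and no level of RING1 or PHF1 is drawn from these counts.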
